A study of Mus musculus with 12 samples.

Results

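The major urinary protein (Mup) locus is a tandem cluster of closely related genes and pseudogenes on mouse chromosome 4, and it is described here through H3K27ac, the acetyl mark on lysine 27 of histone H3 that active promoters and enhancers carry, in regenerating liver. All regions on chromosome 4 that start between positions 59000000 and 63000000 (mm10) were taken, which gave 127 of the 36387 regions listed. Of these, 36 carry a Mup name, 10 carry another name but lie among the Mup-named regions (Gm13773, Gm21286 and Gm12909), and 81 lie outside the cluster. The Mup-named regions run over 2071 kb, from 60080288 to 62151498. They hold 16 names, with 25 regions under 11 pseudogene names (Mup-ps) and 11 regions under Mup2, Mup16, Mup20, Mup3 and Mup21. The locus was selected on its difference in H3K27ac signal between Cox10-/- and wild-type libraries, already known from these same values, so every level, difference and count for it is a description and carries no test.

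The 2 groups compared are Cox10-/- and wild-type regenerating livers, each with 3 H3K27ac libraries. Cox10 encodes an enzyme of heme A synthesis that is needed to assemble cytochrome c oxidase. Per the labels' protocols, mice of both groups carried a floxed Cox10 allele, AAV8-Cre or AAV8-GFP virus was given once by retro-orbital injection, 70% of the liver was removed 4 weeks after the injection, and the regrowing liver was collected on day 2 after that surgery. The protocol does not say which cells took up the virus, which promoter drove Cre, or the sex, age and strain of the mice, and the labels do not say that the numbered replicates came from separate animals, so the spread between libraries may be technical. The 6 input libraries of the series were not used here.

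Major urinary proteins are small lipocalins, barrel-shaped proteins that carry greasy ligands. Hepatocytes of adult mice make them in large amounts and secrete them, and the kidney passes them into the urine, where they bind volatile pheromones and act as scent signals themselves. Their transcription in liver is known to depend on growth hormone acting through its receptor, JAK2 and STAT5, and to be higher in males than in females.

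The promoters of 4 RefSeq genes (GRCm38.p6, the same build) show how alike the copies are and where a region was and was not listed. Mup3 and Mup21 are the copies with an H3K27ac region over their start site. Mup10 lies in the central array and Mup4 at the low-coordinate end, and neither has one. Each line gives the 250 bases before the start site, 5′ to 3′ on the minus strand, for Mup3 at chr4:62087318-62087567, Mup21 at chr4:62150842-62151091, Mup4 at chr4:59960668-59960917 and Mup10 at chr4:60582156-60582405. Capitals mark TATATAA, a match to the textbook core promoter box.
Mup3: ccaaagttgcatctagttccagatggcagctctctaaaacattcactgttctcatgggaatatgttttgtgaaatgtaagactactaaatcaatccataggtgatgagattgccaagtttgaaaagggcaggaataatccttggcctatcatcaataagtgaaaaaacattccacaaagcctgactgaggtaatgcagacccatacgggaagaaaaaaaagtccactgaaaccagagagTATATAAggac
Mup21: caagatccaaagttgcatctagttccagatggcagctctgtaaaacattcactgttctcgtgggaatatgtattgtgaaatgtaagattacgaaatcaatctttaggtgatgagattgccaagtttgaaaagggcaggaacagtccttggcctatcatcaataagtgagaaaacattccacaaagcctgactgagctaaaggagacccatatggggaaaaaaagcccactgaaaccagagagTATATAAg
Mup4: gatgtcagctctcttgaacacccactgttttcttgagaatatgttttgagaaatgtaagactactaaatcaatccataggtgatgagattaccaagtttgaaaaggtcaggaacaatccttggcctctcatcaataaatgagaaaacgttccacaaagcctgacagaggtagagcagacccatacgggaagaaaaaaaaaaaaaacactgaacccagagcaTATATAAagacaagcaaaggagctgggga
Mup10: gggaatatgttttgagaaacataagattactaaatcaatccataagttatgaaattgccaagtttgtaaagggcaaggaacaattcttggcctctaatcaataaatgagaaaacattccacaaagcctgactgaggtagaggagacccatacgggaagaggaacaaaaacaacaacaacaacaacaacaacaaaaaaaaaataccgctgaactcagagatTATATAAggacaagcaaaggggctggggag

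RefSeq lists 22 genes named Mup with a number, and 14 of them had a promoter in the table used. The 10 array promoters (all but Mup3, Mup21, Mup4 and Mup6) matched each other at 89.9% to 99.0% of aligned positions, gaps counted. The median was 97.0% over 45 pairs. Each aligned stretch held 161 to 301 positions, so some values cover only part of the 300 bases. Mup3 and Mup21 matched each other at 92.9%. Either of them matched the array promoters less closely, at 73.7% to 85.1% with a median of 76.8%, over 214 to 300 aligned positions. TATATAA was searched on both strands in the 300 bases around each start site. It was found in 13 of the 14 Mup promoters and in 3.24% of 32851 RefSeq promoters. This motif was picked after the sequences had been read, and the 14 are similar copies, so they are not separate observations. It began at base 220 in Mup9 but at base 263 in Mup14, where the start site follows base 250, so its distance from the stated start varied. TTCNNNGAA, the textbook STAT5 motif, was found in 0 of the 14 windows and in 8.30% of all promoters, which says only that these letters are not in this window. A read that fits several copies equally well can be placed in any of them or dropped, and its part in the values of single copies was not tested.

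H3K27ac at the Mup cluster was far lower in Cox10-/- livers. Levels are in normalised reads, the deposited values, which equal whole reads divided by a size factor for each library. The 36 Mup-named regions together held 690.0, 700.5 and 578.8 normalised reads in the Cox10-/- libraries, against 4108, 3918 and 3910 in the wild-type libraries. The groups did not overlap, and the Cox10-/- sum of 656 ± 67.4 was 6.06-fold below the wild-type sum of 3979 ± 112 (SD, n = 3 each). The 10 regions with other names inside the cluster held 199 ± 19.2 normalised reads in Cox10-/- and 1464 ± 22.5 in wild-type libraries, which was 7.36-fold lower. The 81 regions outside the cluster held 6423 ± 382 in Cox10-/- and 10839 ± 64.6 in wild-type libraries, which was 1.69-fold lower. The signal of the Mup-named regions divided by that outside the cluster, a ratio within each library that no scaling of libraries alters, was 0.102, 0.107 and 0.0965 in Cox10-/- libraries and 0.378, 0.364 and 0.360 in wild-type libraries. In whole liver, fewer cells with the mark and less of the mark per cell cannot be told apart.

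As a share of all reads in listed regions, the Mup-named regions took 0.0246%, 0.0256% and 0.0233% in Cox10-/- libraries, against 0.0746%, 0.0734% and 0.0731% in wild-type libraries. This share does not use the size factors, and it was 3.01-fold lower in Cox10-/- livers. The regions outside the cluster took a larger share in Cox10-/- libraries, 0.240% ± 0.000954, against 0.201% ± 0.00288 in wild-type libraries (SD, n = 3 each). The direction outside the cluster therefore depends on the scale, and that of the Mup-named regions does not.

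**Figure D1:**
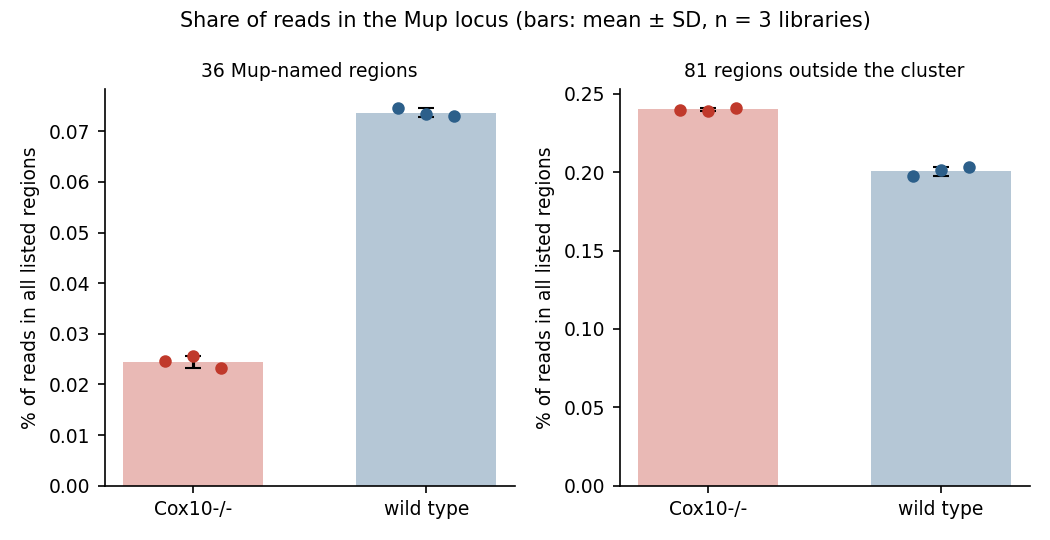
Percent of the reads in all listed regions that fell in the 36 Mup-named regions (left panel) and in the 81 regions outside the cluster (right panel), for Cox10-/- and wild-type libraries; bars are means, error bars SD of 3 libraries, and points single libraries. The Mup-named share averages 0.0245% in Cox10-/- and 0.0737% in wild-type libraries, while the share outside the cluster is slightly larger in Cox10-/- libraries.

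All 36 Mup-named regions were lower in Cox10-/- livers (limma, adjusted p under 0.05), where 87.2% of all regions were called lower and 4.46% higher. In all 36, each Cox10-/- library lay below each wild-type library, as in 86.4% of all regions, while the reverse held in 4.44%. These backgrounds are high because H3K27ac was lower across the genome on the deposited scale, and the sizes of the falls say more than the calls. The median log2 difference was -2.47 over the Mup-named regions (5.53-fold lower, interquartile range -2.82 to -2.22), against -1.04 over all regions. A log2 difference below -2 was seen at 31 of the 36 Mup-named regions, against 12.8% of all regions. On a scale that sets the median region of every library to the same level (centring), all 36 were still called lower, where 32.4% of all regions were called lower and 33.6% higher. In the authors' deposited table all 36 were lower too, against 84.8% of all regions lower and 3.58% higher.

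Kinds of Mup region had similar medians. The median log2 difference was -2.45 over the 25 regions with a pseudogene name and -2.49 over the 11 regions with the name of a numbered gene. It was -2.41 over the 12 regions annotated within 1 kb of a start site and -2.52 over the 21 distal intergenic ones, whereas over all regions promoters stood at -0.87 and distal intergenic regions at -1.23. The share of distal intergenic regions was 58.3% among Mup-named regions, against 11.1% outside the cluster and 17.7% of all regions. The remaining 3 Mup-named regions lay 1 to 2 kb from a start site (2 regions) or in a 3′ UTR (1 region). The correlation of the log2 difference with the log2 wild-type level was -0.17 across the 36 Mup-named regions, -0.41 across the 81 outside and -0.26 across all regions, values that share the wild-type libraries on both axes.

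In wild-type livers the listed Mup-named regions had a level, per length, close to that of listed regions elsewhere. The median wild-type level was 236 normalised reads per kb over Mup-named regions, against 225 outside the cluster and 239 over all regions. A region may be listed because of its wild-type signal, and how this bears on these medians was not tested. These medians cover listed regions only, so they do not give the level of the locus as a whole. In Cox10-/- livers the same medians were 42.1 for Mup-named regions, 130.4 outside the cluster and 117 over all regions. The regions were short, with a median width of 358 bases (183 to 2248), against 440 over all regions. Over the 3 libraries of a genotype, a Mup-named region held 4 to 467 reads in Cox10-/- (median 49) and 99 to 1338 reads in wild type (median 176), so the Cox10-/- levels of the weakest regions rest on few reads.

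**Figure D2:**
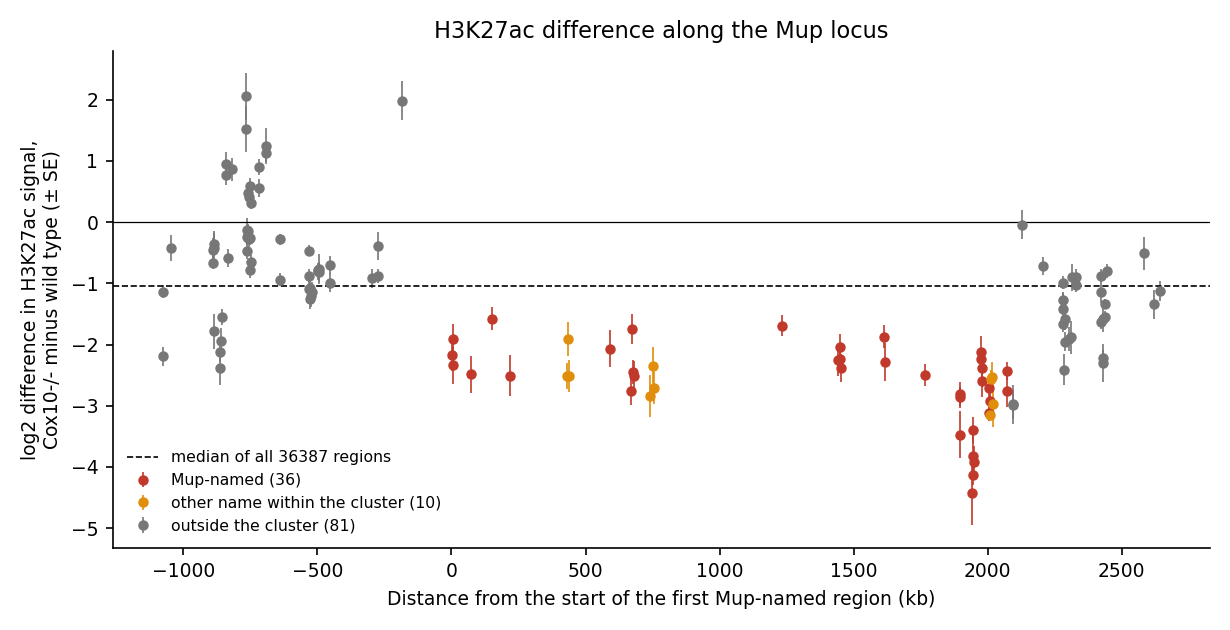
Log2 difference in H3K27ac signal (Cox10-/- minus wild type, on log2(value + 1), ± SE) of each of the 127 regions against its distance in kb from the start of the first Mup-named region; the dashed line is the median of all 36387 regions. The 36 Mup-named and 10 other regions within the cluster all lie below the dashed line, between -4.42 and -1.58, while regions outside the cluster scatter on both sides of it and, toward the low-coordinate end, rise above 0.

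Mup20 encodes darcin, a male pheromone protein that attracts females. The widest Mup-named region lay beside it, from 62055052 to 62057299, annotated as promoter. It held 136, 116 and 123 normalised reads in Cox10-/- libraries, against 591, 629 and 556 in wild-type libraries. All Cox10-/- libraries lay far below the wild-type ones, with means of 125 ± 9.99 and 592 ± 36.3 (SD, n = 3 each) and a log2 difference of -2.23 (SE 0.10). The 3 smaller regions named Mup20 had log2 differences of -2.13, -2.38 and -2.60, and the 4 together held 157 normalised reads in Cox10-/- and 764 in wild-type livers, 4.88-fold lower.

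Mup3 had regions on both sides of its start site at 62087317. The one over it, from 62086316 to 62087465, held 34.8, 31.5 and 33.3 normalised reads in Cox10-/- libraries, against 321.9, 264.3 and 300.4 in wild-type libraries, a log2 difference of -3.11 (SE 0.13). The next one upstream, from 62087508 to 62088017, also overlaps the Mup3 promoter printed above and held 34.0, 26.6 and 17.4 normalised reads in Cox10-/- libraries, against 191.6, 190.4 and 213.4 in wild-type libraries, a log2 difference of -2.93 (SE 0.16). The highest wild-type level per length among the Mup-named regions, 389 normalised reads per kb, was in this upstream region. The 3 regions named Mup3 together were 7.92-fold lower in Cox10-/- livers (81.0 against 641 normalised reads in wild type).

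Upstream of Mup3, 4 regions are named for the predicted gene Gm12909. The broadest, from 62088268 to 62090608, is 2341 bases wide and had the most reads of any region in the cluster in wild-type livers, with 88.4, 88.0 and 81.1 normalised reads in Cox10-/- libraries against 768.9, 747.8 and 805.2 in wild-type libraries. It lies next to the Mup3 promoter regions and fell as they did, with a log2 difference of -3.16 (SE 0.10). The other 3 regions named Gm12909 had log2 differences of -2.57, -2.53 and -2.98. The other names inside the cluster lie in the central array. The 3 regions named Gm13773 held 38.3 normalised reads together in Cox10-/- and 208 in wild-type livers (5.43-fold lower), and the 3 named Gm21286 held 23.6 in Cox10-/- and 162 in wild-type livers (6.87-fold lower).

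Mup21, the last copy on the high-coordinate side, had a region over its start site at 62150841, from 62150206 to 62150926. It held 32.3, 42.8 and 25.0 normalised reads in Cox10-/- libraries, against 211.5, 161.6 and 171.3 in wild-type libraries. The lowest wild-type library was well above the highest Cox10-/- library, and the log2 difference was -2.43 (SE 0.15). A small region beside it, 62151194 to 62151498, had a log2 difference of -2.76 (SE 0.25).

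The 4 largest falls lay in regions named for the pseudogenes Mup-ps20 (1 region) and Mup-ps21 (3 regions). These regions are annotated as distal intergenic but fall inside the extent RefSeq gives to Mup20, 62011337 to 62054143, so the nearest-gene name is not the only reading of their position. The main Mup-ps21 region, from 62026587 to 62027747, held 13.6, 16.9 and 16.7 normalised reads in Cox10-/- libraries, against 304.6, 265.7 and 308.0 in wild-type libraries. Nearly all of its signal was missing in Cox10-/- livers, with a 17.6-fold lower level and a log2 difference of -4.14 (SE 0.16). The 4 regions named Mup-ps21 together held 37.5 ± 13.0 normalised reads in Cox10-/- and 577 ± 15.1 in wild-type livers (SD, n = 3 each). The Mup-ps20 region, from 62020047 to 62020258, had 0.85, 0.81 and 1.52 normalised reads in Cox10-/- libraries and 51.9, 50.7 and 29.4 in wild-type libraries. It rests on 4 reads in all 3 Cox10-/- libraries and 99 in the wild-type ones, and its log2 difference of -4.42 (SE 0.53) is held down by the pseudocount of 1.

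The 3 regions named Mup-ps19, just before these, were 8.10-fold lower together, with 39.0 normalised reads in Cox10-/- and 316 in wild-type livers, and the one at 61976850 had a log2 difference of -3.47, next in size to those above. Of the pseudogene names in the central array, Mup-ps8 had the most regions, and its 4 regions held 58.3 ± 2.31 normalised reads in Cox10-/- and 322 ± 5.44 in wild-type livers (SD, n = 3 each), 5.53-fold lower. The smallest falls of the 36 were at single regions named Mup-ps3 and Mup-ps11, intergenic regions near Mup8 and Mup14. The Mup-ps3 region, starting at 60231788, held 32.3, 24.2 and 22.0 normalised reads in Cox10-/- libraries, against 86.5, 94.5 and 60.1 in wild-type libraries, a log2 difference of -1.58 (SE 0.19). Even there the groups did not overlap, and the Mup-ps11 region had a log2 difference of -1.69 (SE 0.17). The other names, Mup-ps1, Mup2, Mup-ps7, Mup16, Mup-ps13, Mup-ps15 and Mup-ps23, were 4.14-fold to 5.87-fold lower by their summed signal. The region named Mup2 is annotated as a promoter but lies 14.5 kb beyond the RefSeq extent of that gene.

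**Figure D3:**
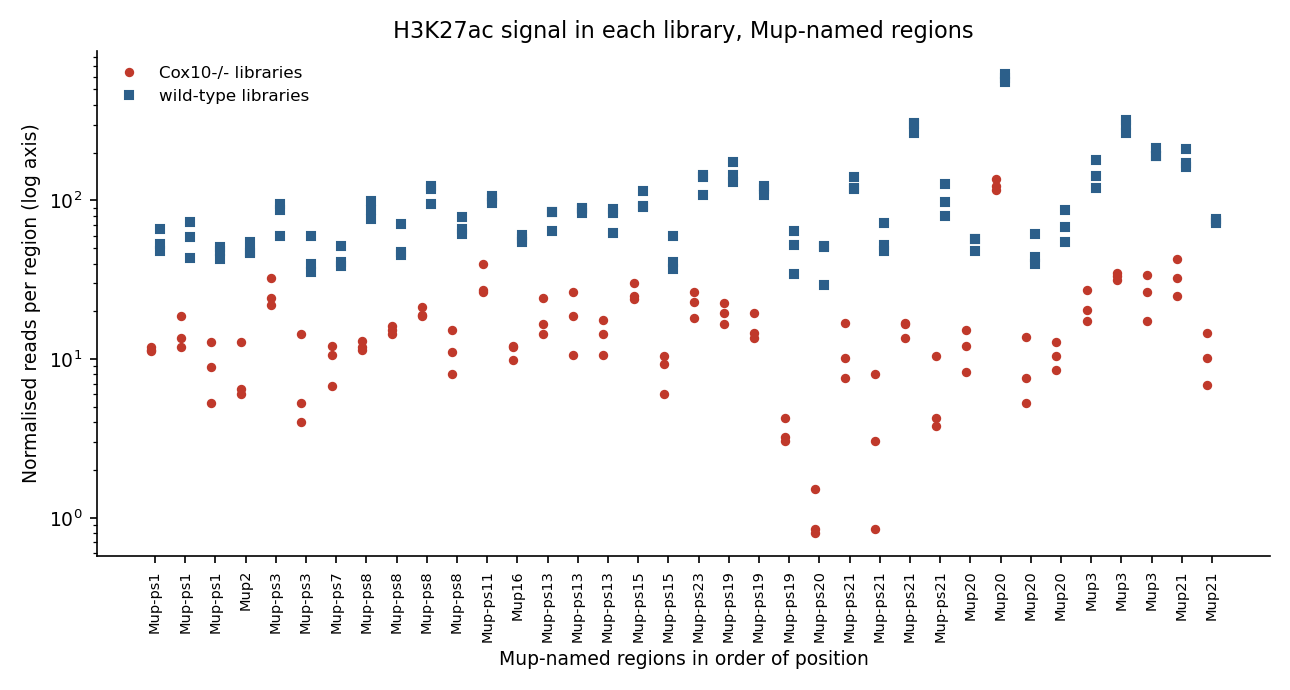
H3K27ac signal in normalised reads (log axis) of the 36 Mup-named regions in order of position, with 1 circle per Cox10-/- library and 1 square per wild-type library. In every region the 3 circles lie below the 3 squares, with the widest gaps at Mup-ps20 and Mup-ps21 and the highest levels in both genotypes at the broad Mup20 region.

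Most Mup genes had no listed region at the gene itself. Reads that fit several copies can be dropped, which was not tested here, so a gene without a listed region may still carry the mark. Of the 22 RefSeq genes, 16 had none over the gene or within 1 kb of it, and of the 14 promoters in the table only those of Mup3 (2 regions) and Mup21 (1 region) touched one. Instead, regions in the central array recurred at set distances from a gene's high-coordinate end, which is the 5′ end for 13 of the 14 genes whose strand is known from the promoter table. A first band lay 9.32 to 10.1 kb (median 9.90 kb) beyond that end in 8 genes: Mup7, Mup8, Mup1, Mup11, Mup12, Mup22, Mup14 and Mup16. A second band lay 13.9 to 14.1 kb beyond it in 4 genes (Mup7, Mup1, Mup12 and Mup16), and the third 14.6 to 15.1 kb beyond it in 5 genes (Mup7, Mup2, Mup1, Mup12 and Mup22). Mup7, Mup1 and Mup12 had all 3 bands. Among the genes with a band, Mup8, Mup1, Mup12, Mup22 and Mup16 have no strand in the promoter table. For these it is not known from that table whether the bands lie at the 5′ side. The limits of the bands were set after the positions had been seen.

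The 3 bands had similar levels and all were lower in Cox10-/- livers. The first band had a median of 13.8 normalised reads in Cox10-/- and 83.5 in wild-type livers, with a median log2 difference of -2.21. The second had medians of 14.5 in Cox10-/- and 56.4 in wild-type livers, with a median log2 difference of -1.91. The third had medians of 9.69 in Cox10-/- and 67.4 in wild-type livers, with a median log2 difference of -2.49. Whether reads are shared between the copies of a band was not tested.

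**Figure D4:**
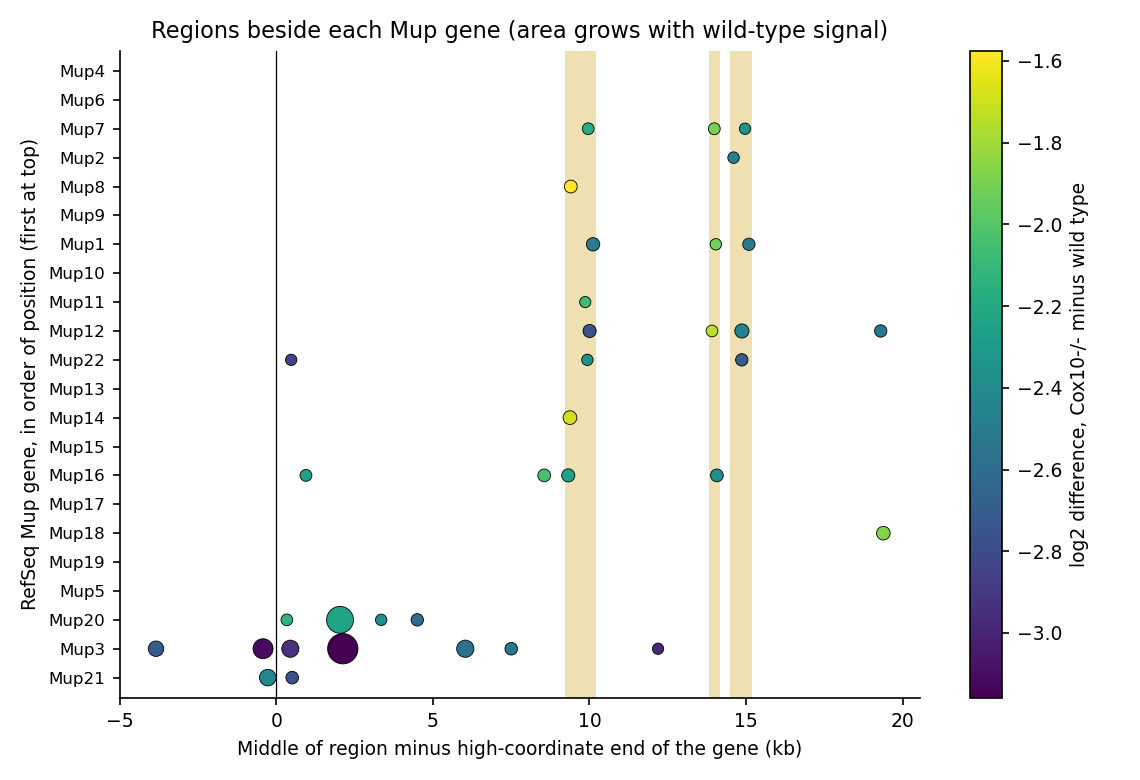
Distance in kb from the high-coordinate end of each of the 22 RefSeq Mup genes (rows, in order of position, the lowest coordinate at the top) to the middle of each region near it; circle area grows with wild-type signal, colour gives the log2 difference between Cox10-/- and wild type, and shaded strips mark the 3 recurring bands. Regions of the central array line up in the bands at about 9.90, 14.0 and 14.9 kb, while the strongest regions sit near the ends of Mup20 and Mup3.

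The first regions outside the cluster differed between its sides. Before the first Mup-named region, 185 kb held no listed region, although the RefSeq genes Mup4, Mup6 and Mup7 lie within that gap. The last region before the gap was named Snx30, annotated as a promoter and started at 59895020. It held 36.5, 39.6 and 38.6 normalised reads in Cox10-/- libraries against 6.65, 13.7 and 7.67 in wild-type libraries. It was thus higher in Cox10-/- livers, with a log2 difference of 1.98 (SE 0.32). After the last Mup-named region, 22.7 kb separated it from a pair of intergenic regions named for Zfp37, a zinc finger gene. These started at 62174222 and 62174801 and were as low as the cluster, with 6.20 against 55.7 and 10.3 against 86.8 normalised reads (Cox10-/- against wild type in each pair) and a log2 difference of -2.98 at both. The promoter of Zfp37 itself, at 62208628, held 32.3, 27.4 and 32.6 normalised reads in Cox10-/- libraries and 27.9, 38.3 and 29.4 in wild-type libraries, which overlapped (log2 difference -0.04, SE 0.24, not called).

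Outside the cluster, 57 of the 81 regions were called lower in Cox10-/- livers, 14 higher and 10 neither (all regions: 87.2% lower and 4.46% higher), with a median log2 difference of -0.87. After centring these became 20 lower and 36 higher (all regions: 32.4% lower and 33.6% higher), with the median over all regions moved to 0.01. On the high-coordinate side 26 of 28 regions were lower at the deposited scale, with a median of -1.39, and the 2 not called were at the Zfp37 promoter and at Rgs3. On the low-coordinate side 31 of 53 were lower and 14 higher, with a median of -0.47.

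All 14 regions that were higher lay on the low-coordinate side, with 10 named for Susd1, which encodes a sushi-domain protein, 2 for Ugcg, the glucosylceramide synthase, and 1 each for Gm12596 and Snx30. The largest rise was at a Susd1 region starting at 59315281, with 36.5, 25.8 and 29.6 normalised reads in Cox10-/- libraries against 5.32, 6.85 and 7.67 in wild-type libraries (log2 difference 2.05, SE 0.38). Susd1 had 20 regions in all, of which 6 were lower and 4 were not called (all regions: 87.2% lower and 4.46% higher). The sum of the 20 was nearly equal between genotypes, 2509 ± 144 in Cox10-/- and 2556 ± 107 in wild-type libraries (SD, n = 3 each). Within Ugcg the direction also differed by position: the promoter region held 142 normalised reads in Cox10-/- and 225 in wild-type livers, a region in intron 6 of 8 was 5.19-fold lower, and the 2 regions beyond the gene at 59238672 and 59239624 were 1.71-fold and 1.94-fold higher.

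Outside the cluster 36 promoter regions were listed, of which 26 were lower, 6 higher and 4 not called. Of all 15980 promoter regions, 14749 were lower, 202 higher and 1029 not called. The 36 outside the cluster belong to 19 genes. By the strongest promoter region of each gene, 18 of the 19 were lower in Cox10-/- livers at the deposited scale, where 92.4% of all gene names were lower, with a median log2 difference of -0.89 (-1.34 to -0.04), close to the median of -0.87 over all promoter regions. After centring, Alad alone of these was lower, 8 were higher and 10 were not called, where 19.3% of all gene names were lower and 46.5% higher. Alad encodes the delta-aminolevulinate dehydratase of heme synthesis. Its promoter region, from 62517231 to 62520467, held 396, 372 and 335 normalised reads in Cox10-/- libraries and 946, 927 and 906 in wild-type libraries (log2 difference -1.33, SE 0.08). All 5 Alad regions were lower, where 87.2% of all regions were. The Alad sum was 2.86-fold lower (582 in Cox10-/- and 1664 in wild-type livers).

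Slc31a1 encodes the main copper importer of the cell membrane. Its promoter region held 93.2 ± 12.7 normalised reads in Cox10-/- and 227 ± 18.9 in wild-type libraries (SD, n = 3 each, log2 difference -1.28). All 8 Slc31a1 regions were lower, where 87.2% of all regions were, and their sum was 3.20-fold lower. Its neighbour Slc31a2, a related copper transporter, had 64.2 in Cox10-/- and 107 in wild-type libraries (log2 difference -0.72), and Fkbp15, between them, had 131.2 in Cox10-/- and 262 in wild-type libraries (-0.99). Rgs3, a regulator of G protein signalling, had 19.7 in Cox10-/- and 50.5 in wild-type libraries (-1.34). The other genes on this high-coordinate side, Cdc26, Prpf4, Hdhd3 and Pole3, had log2 differences of -1.03 to -0.80. Ptbp3, on the low-coordinate side, had one of -1.09.

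On the low-coordinate side, the nearest gene was the sorting nexin gene Snx30, whose strongest promoter region, starting at 59805880, had 109.8 normalised reads in Cox10-/- and 204 in wild-type libraries (log2 difference -0.89), unlike the weaker one at 59895020 given above, which was higher in Cox10-/- livers. The next were Inip, a subunit of a single-stranded DNA-binding complex (52.7 in Cox10-/- and 102 in wild type, -0.92), E130308A19Rik (61.3 and 100.5 in the same order, -0.70) and Hsdl2, a hydroxysteroid dehydrogenase-like protein (207 and 355, -0.78). Farther out, log2 differences were -0.47 at 1700018M17Rik, -0.28 at Susd1, -0.66 at Ugcg and -1.14 at Gm20503. These values are for the strongest promoter region of each gene. A weaker one at Gm20503, starting at 59004116, had a log2 difference of -2.19.

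**Figure D5:**
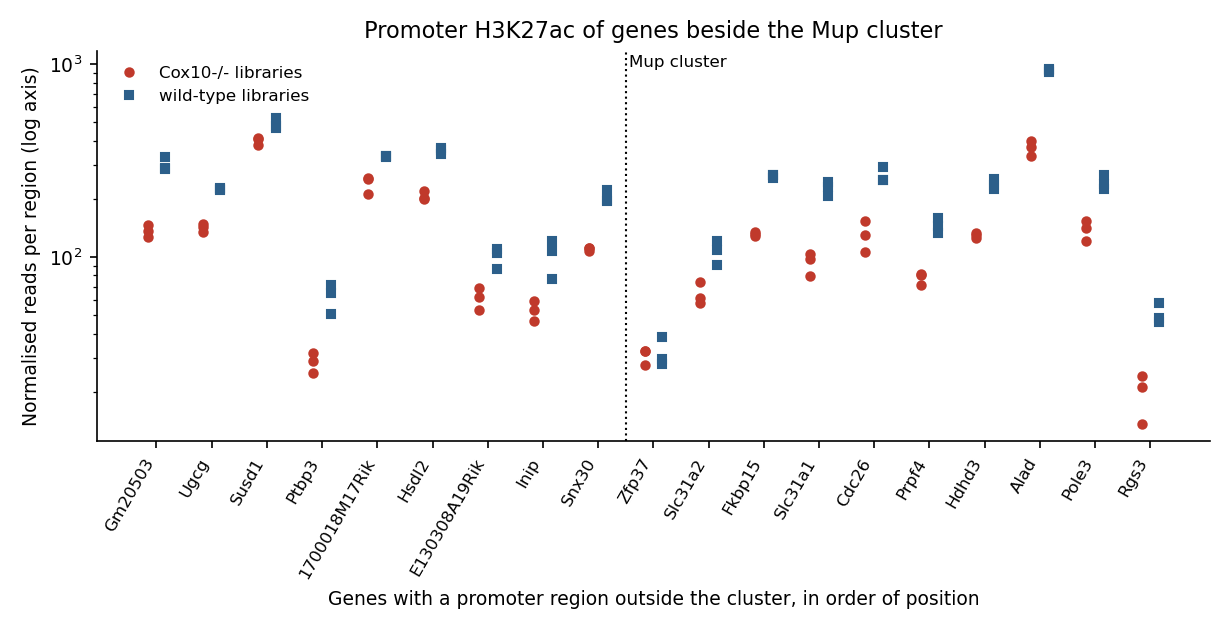
H3K27ac signal in normalised reads (log axis) at the strongest promoter region of each of the 19 genes outside the cluster, in order of position, with circles for Cox10-/- and squares for wild-type libraries; the dotted line marks where the Mup cluster lies. The Cox10-/- values lie below the wild-type ones at 18 genes and overlap them at Zfp37, and the levels at Alad are 368 in Cox10-/- and 926 in wild-type libraries.

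The regions next to the limits of the window were called lower in Cox10-/- livers, except the first beyond its high-coordinate end, which was not called. The last region before it, named Ptgr1, held 12.1 normalised reads in Cox10-/- and 42.5 in wild-type libraries, and the first inside it, named Gm20503, held 136 in Cox10-/- and 301 in wild-type libraries. The last inside, named Gm11210, held 45.7 in Cox10-/- and 103 in wild-type libraries. The first beyond, named Zfp618, held 43.7 in Cox10-/- and 33.6 in wild-type libraries (log2 difference 0.35, SE 0.21).

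Genes of the growth hormone pathway and factors known to act on Mup transcription were looked up on a list of 22, each through its strongest promoter region or, failing that, its strongest region. Of these, 21 had a region and all 21 were lower in Cox10-/- livers, where 92.4% of 11240 gene names were lower. Their median log2 difference was -1.28, against -0.84 over all gene names, and after centring 12 were lower and 3 higher (19.3% and 46.5% of all gene names). The largest falls were at Cux2, a homeobox repressor of male-biased genes (14.2 normalised reads in Cox10-/- and 83.6 in wild-type libraries, log2 difference -2.52), Onecut1, a hepatocyte factor (49.0 and 253 in the same order, -2.34), and Foxa3, a forkhead factor (94.6 and 360, -1.92). The Cux2 region lies in an intron and the Onecut1 region is distal intergenic, while that of Foxa3 is a promoter. The growth hormone receptor gene Ghr stood at -1.84 and Hnf4a at -1.39. Smaller differences were seen at Jak2 (-0.62), at Stat5b (-0.84) and at Zhx2, a regulator of liver genes including Mup genes (-0.92). Jak2, Stat5b and Nr3c1 were the 3 that were higher after centring.

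Of 18 male-biased genes that depend on growth hormone in mouse liver, 11 had a region and all 11 were lower, close to the 92.4% of all gene names, with a median log2 difference of -1.27. After centring 5 were lower and 1 was higher, against 19.3% and 46.5% of all gene names. The largest falls were at Serpina1e, an alpha-1-antitrypsin gene with near-identical copies (4.25 normalised reads in Cox10-/- and 87.9 in wild-type libraries, log2 difference -4.10), C8b, a complement gene (20.6 and 143 in the same order, -2.73), and Hsd3b5, a steroid dehydrogenase gene (18.5 and 106, -2.55).

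Of 15 other lipocalin genes, 9 had a region and all 9 were lower, where 92.4% of all gene names were, with a median log2 difference of -2.18. After centring 6 were lower and 3 higher, against 19.3% and 46.5% of all gene names. The largest falls were at intergenic regions named for Lcn12 and Ptgds (log2 differences -3.40 and -3.26) and at the promoter of Apom, which encodes a lipoprotein component (13.9 normalised reads in Cox10-/- and 140.1 in wild-type libraries, -3.26). Rbp4, the plasma retinol carrier, held 242 normalised reads in Cox10-/- and 1095 in wild-type libraries (-2.18). Orm1, Orm2 and Orm3, which encode acute-phase orosomucoids and lie beyond the window on the same chromosome, were lower by less (-0.80, -0.54 and -0.62) and were the 3 that were higher after centring. Of 6 genes listed for a part in smell, Gnai2 alone had a region, a promoter (217 normalised reads in Cox10-/- and 329 in wild-type libraries, -0.60). The list was meant as a set not used by liver, which the level at Gnai2 does not bear out.

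Markers of the cell types in the tissue were read the same way. All 10 hepatocyte markers, Alb and Apoa1 among them, had a region and all were lower in Cox10-/- livers, where 92.4% of all gene names were, and 9 were lower after centring, where 19.3% were. They had summed levels of 1859 to 2214 normalised reads in Cox10-/- and 6486 to 6776 in wild-type libraries and a median log2 difference of -1.72. Of 9 macrophage and Kupffer markers 2 had a region, with sums of 375 to 414 in Cox10-/- and 333 to 366 in wild-type libraries; Cx3cr1 was lower and Cd14 higher. Of 7 endothelial markers 3 had one (144 to 190 in Cox10-/-, 225 to 229 in wild type), of 6 stellate markers Dcn alone (31.8 to 49.2 in Cox10-/-, 66.5 to 105 in wild type), of 5 biliary markers 2 (82.6 to 97.7 in Cox10-/-, 97.2 to 118 in wild type), and of 5 leukocyte markers Ptprc alone (14.4 to 22.1 in Cox10-/-, 61.3 to 89.1 in wild type). The other markers have no listed region, and the part of cell composition in the Mup values was not tested. Of the markers with a region, those of Ptprc, Dcn, Lyve1 and Epcam were distal intergenic and only named for these genes. The Pecam1 region lay 2 to 3 kb from a start site.

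The regions held 3302556, 3385453 and 3282878 reads in Cox10-/- libraries and 4138459, 3897454 and 4187377 in wild-type libraries. The size factors were 1.18, 1.24 and 1.32 in Cox10-/- libraries and 0.752, 0.730 and 0.782 in wild-type libraries, so scaling lowers all Cox10-/- levels relative to wild type, and per the labels' protocols the chromatin was mixed with a spike-in ahead of the pull-down. The single region at Cox10, in an intron, held 60.3, 46.0 and 65.9 normalised reads in Cox10-/- libraries and 14.6, 17.8 and 12.8 in wild-type libraries, which says nothing of whether the floxed part was deleted.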

How the data were processed

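H3K27ac ChIP-seq of Cox10-/- and wild-type liver was used, 3 libraries each. The authors deposited a table of normalised signal per region, with log2 fold changes, Wald statistics (a score), p-values and adjusted p-values, and annotation. Per the submitters' processing notes, which give no roles, the tools were deepTools 3.5.0, BWA 0.7.5 and MACS, on mm10. Whole reads were recovered from the signal with a single size factor for each library (100% of values within 0.01 reads). The sources used here do not give how the factors were made or how reads that fit several copies were placed. Of 36446 rows 59 repeats were dropped, and the lowest mean signal listed was 10.8. Coordinates are as deposited.

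All 36387 regions were fitted with limma 3.58.1 (R 4.3.3, trend) on log2(value + 1), Cox10-/- minus wild type, with Benjamini-Hochberg adjustment over all regions and a threshold of 0.05. A pseudocount understates changes of low regions. The SE is limma's and draws on all regions. The count test, edgeR 4.0.16 on the recovered reads with the deposited factors, called 31769 regions lower, and DESeq2 1.42.0 was also run. Scripts were tested on simulated data. Alternatives were other pseudocounts, scalings, thresholds, filters, member definitions, a replicate block and leaving out each library. Promoters were aligned locally with Biopython 1.88 (match 1, mismatch -1, gap open -3, gap extend -1), and the sequences are RefSeq's.

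The members and all gene lists were chosen with earlier results of these data known. Every Mup-named region and every other region in the cluster was eligible to be named. Flanking genes with a promoter region were represented by the strongest. The 4 nearest on each side and those with the largest and smallest falls were to be named, and the others of the 19 were named too. By this region 0 of the 19 were called higher. Of the growth hormone, male-biased and lipocalin lists, the 3 largest falls were named. Other list genes and markers were named after their values had been seen, for their known role or because few of their list had a region.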

Additional observations from a re-analysis of the deposited data

How the results depend on the processing

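Here the flank is the 91 regions of the window without a Mup name. All 36 Mup-named regions were lower at the main settings, as were 67 flanking regions and 31719 of all regions. The median log2 difference of Mup-named minus flanking regions was -1.55, and the Mup-named sum in Cox10-/- over wild type was 0.165. Over 22 alternative settings that difference ran from -1.64 to -1.26 and that ratio from 0.157 to 0.342, and none changed direction. Centring each library gave 30 flanking regions and 11800 of all regions lower, with a ratio of 0.341. Scaling to the same sum gave 31, 12710 and 0.332, edgeR with TMM factors 31, 12164 and 0.342, and DESeq2 with its own factors 28, 10231 and 0.342. These settings replace the size factors, and all 36 Mup-named regions were lower under each. A pseudocount of 4 gave a difference of -1.35. Counting only flanking regions away from promoters left 39 of 53 lower and a difference of -1.26. Without pseudogene names, 11 of 11 Mup-named regions were lower, and by position 46 of 46.

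Leaving out each library in turn gave 36 Mup-named regions lower in every case, 66 to 70 flanking regions, 31097 to 31688 of all regions, a difference of -1.59 to -1.43 and a ratio of 0.159 to 0.175. Same-numbered libraries did not deviate together (correlations -0.0009, 0.0074 and 0.0054), so the numbers were not taken as pairs. The fit with a replicate block gave 36 Mup-named, 67 flanking and 31755 of all regions lower. The precision of single regions is limited by reads, from 4 in the 3 Cox10-/- libraries together at the weakest, and by copies that share sequence, whose effect was not tested.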

Other observations

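The falls were not even along the cluster. Divided after the values had been seen, the 19 regions from Mup-ps1 to Mup-ps23 had a median log2 difference of -2.25, and the 17 regions from Mup-ps19 to Mup21 one of -2.87. Within the second stretch, the 8 regions named Mup-ps19, Mup-ps20 and Mup-ps21 had a median of -3.64, with 8.88 normalised reads in Cox10-/- and 109.0 in wild-type livers, and the 9 regions named Mup20, Mup3 and Mup21 had one of -2.60, with 21.8 in Cox10-/- and 147 in wild-type livers. The split was chosen to show this, so it carries no test.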
